A study of Mus musculus with 12 samples.

Results

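The immediate early genes of the AP-1 and Egr families are described here in RNA that the labels assign to macrophages of mouse melanomas. The set was given by name as Atf3, Jun, Junb, Jund, Fos, Fosb, Egr1, Egr2, Ier2 and Ier3, and was chosen with earlier results of these data known. All 10 genes were found among the 34989 genes summed from the deposited transcript tables, and all 10 passed the filter on low counts that left 16027 genes for testing. Immediate early genes are switched on within minutes of a signal, without new protein synthesis, and their mRNAs are short-lived. Fos and Jun proteins pair through leucine zippers into the AP-1 transcription factor, ATF proteins can join the same dimers, and Egr proteins bind GC-rich sites through zinc fingers. In macrophages these factors act downstream of MAP kinases and stand among the early responders to cytokines and to ligation of receptors such as CD40. They are also known to respond to the handling of tissue during digestion.

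There were 4 groups of 3 libraries, and the study's title concerns synergy between myeloid-targeted therapies. The CSF1Ri + CD40 agonist group, called the combination here, ate chow with PLX6134 at 600 mg/kg, read from the labels as an inhibitor of the CSF1 receptor, and was injected with FGK4.5, an antibody that activates CD40, at 10 mg/kg every 3 days for up to 10 doses. CSF1Ri mice had that chow and no antibody, CD40 agonist mice had the antibody on normal chow, and Control mice had normal chow. The labels name PBS as the vehicle of the antibody. All 4 groups carried Tyr::CreER, a tamoxifen-inducible Cre recombinase under the tyrosinase promoter, which acts in melanocytes, and the other alleles of the tumor model are not reported here. Mice were age-matched within an experiment, at an age not given in the sources used here. Treatment ran from day 30 after tumor induction for at most 30 days, with an endpoint of 2 cm3. Each library came from at least 3 pooled tumors, digested with collagenase for 30 minutes at 37 °C, with dead cells removed, and no sorting gate is given in the sources used here.

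Library totals ran from 26316328 to 39818657 counts. Summed macrophage markers stood at 15000 to 35449 CPM (TMM-scaled counts per 1000000) in the combination, 22968 to 28562 CPM with CSF1Ri, 16572 to 20936 CPM with the CD40 agonist and 17551 to 20988 CPM in Control. Melanocyte markers lay between 11.1 and 105 CPM in all 12 libraries and NK cell markers between 406 and 1514 CPM. Most of the macrophage sum was lysozyme 2 (Lyz2), and by the median log2 difference the 14 macrophage genes stood at -0.24 with CSF1Ri against Control, with 6 above 0. The complement genes C1qa, C1qb and C1qc lay between 0 and 14.5 CPM with CSF1Ri, against 15.6 to 69.7 CPM in Control. They spanned 1.93 to 198 CPM in the combination and 29.9 to 299 CPM with the CD40 agonist. Combination replicate 2 and CSF1Ri replicate 3 stood apart from their groups on the second principal component, and CD40 agonist replicate 1 on the third, at -116 against -12.8 and 3.71 for its group. In bulk RNA, fewer cells of a type and less RNA per cell cannot be told apart. Whether the 3 samples of a group were housed or collected apart is not stated, so each p-value measures the spread between pooled samples.

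The 250 bases before the start site of the genes that rose in the combination are shown first, because these genes were called together. Sequences are from RefSeq on GRCm38.p6, read 5′ to 3′ on the gene's strand, and lie at chr1:191183334-191183583 (minus strand, Atf3), chr4:95052223-95052472 (minus strand, Jun), chr8:84978749-84978998 (minus strand, Junb), chr12:85473640-85473889 (plus strand, Fos) and chr7:19310046-19310295 (minus strand, Fosb). Capitals mark the element TGACG or its complement CGTCA, a part of the site that ATF and CREB factors bind, and the Egr site GCGGGGGCG.
Atf3 promoter: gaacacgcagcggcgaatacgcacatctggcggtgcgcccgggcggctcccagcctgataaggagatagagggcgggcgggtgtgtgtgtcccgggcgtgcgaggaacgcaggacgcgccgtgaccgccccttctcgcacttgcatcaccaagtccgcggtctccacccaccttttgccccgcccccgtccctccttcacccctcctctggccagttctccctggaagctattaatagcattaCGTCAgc
Jun promoter: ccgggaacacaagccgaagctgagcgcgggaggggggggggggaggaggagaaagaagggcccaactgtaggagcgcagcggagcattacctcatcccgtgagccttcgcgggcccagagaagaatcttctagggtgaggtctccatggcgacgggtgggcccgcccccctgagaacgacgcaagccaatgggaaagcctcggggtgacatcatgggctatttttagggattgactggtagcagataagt
Junb promoter: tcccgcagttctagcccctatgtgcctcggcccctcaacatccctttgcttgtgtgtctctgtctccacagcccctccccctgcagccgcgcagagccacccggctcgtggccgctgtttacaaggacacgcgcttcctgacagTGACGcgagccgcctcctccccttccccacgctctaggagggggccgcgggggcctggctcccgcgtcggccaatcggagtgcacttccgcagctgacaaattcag
Fos promoter: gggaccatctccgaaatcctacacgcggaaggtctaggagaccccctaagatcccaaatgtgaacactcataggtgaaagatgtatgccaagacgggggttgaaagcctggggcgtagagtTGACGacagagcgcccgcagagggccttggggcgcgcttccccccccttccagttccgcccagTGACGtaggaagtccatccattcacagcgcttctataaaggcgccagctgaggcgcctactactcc
Fosb promoter: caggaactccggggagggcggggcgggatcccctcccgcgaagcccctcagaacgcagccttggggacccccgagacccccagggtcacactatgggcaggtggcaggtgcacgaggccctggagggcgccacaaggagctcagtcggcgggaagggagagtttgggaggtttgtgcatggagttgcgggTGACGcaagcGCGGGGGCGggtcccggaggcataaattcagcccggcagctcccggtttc

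Promoter entries were found for 8 of the 10 genes, all but Egr1 and Ier2, with 12 entries in all because Egr2 has 5. The Jund window, at chr8:70697489-70697738, lies apart from the annotated start of its only transcript, at 70698949. Both strands were searched for each motif. The TGACG element lay 7 bases before the RefSeq start of Atf3, 106 before that of Junb, 129 and 66 before that of Fos and 60 before that of Fosb. For Atf3 it begins at 191183340, the annotated GENCODE start of the main transcript, and so lies within that transcript. TGACG was also present before Egr2, and 17.8% of all 32851 promoter windows of the same length hold it. The Fosb window held the Egr site at 50 bases before the start, a motif found as GCGTGGGCG or GCGGGGGCG in 3.06% of windows. Neither the full AP-1 site TGAGTCA (4.46% of windows) nor the full cAMP response element TGACGTCA (1.55%), which contains that element, was spelled out in any of the 12 entries. The Fos window held the TATA box letters TATAAA at 33 bases before the start (12.4% of windows). These matches describe letters in a window and were not tested for binding.

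The CArG box, which serum response factor binds, was found in 1.47% of all windows and, among the 8 genes with an entry, in the windows of Egr2 alone. Boxes farther than 250 bases before a start, and any before Egr1 or Ier2, were outside this search. The box appeared before Egr2 in a pair of places on the plus strand of chromosome 10. Each is shown with the bases around it, the box in capitals. The first lies at chr10:67537479-67537519, in a window without an annotated start of an Egr2 transcript, and the second at chr10:67537782-67537822.
Egr2 CArG box, upstream copy: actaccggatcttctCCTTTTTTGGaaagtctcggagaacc
Egr2 CArG box, downstream copy: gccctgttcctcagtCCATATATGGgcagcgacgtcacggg

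Compared per transcript length, in TPM (transcripts per 1000000), Fos was the most abundant of the 10 genes in each group. Its mean level was 1028 ± 132 TPM in the combination, 738 ± 184 TPM with CSF1Ri, 939 ± 18.0 TPM with the CD40 agonist and 525 ± 110 TPM in Control (SD, n = 3 each). In Control it already exceeded 98.1% of the tested genes. Behind it in Control came Ier2 at 108 TPM, Ier3 at 89.6 TPM and Junb at 79.7 TPM, whose ranges over libraries overlapped between neighbours. Atf3 (57.6 TPM) and Egr1 (52.0 TPM) overlapped each other, as did Jun (28.5 TPM) and Fosb (22.6 TPM), and Jund (14.7 TPM) and Egr2 (6.37 TPM) closed the order.

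With the combination the order of mean TPM levels was Fos, Ier3, Atf3, Ier2, Junb, Egr1, Fosb, Jun, Jund and Egr2. Atf3 stood at 285 ± 39.8 TPM there, within the range of Ier3 (325 ± 50.9 TPM) and apart from Ier2 (229 ± 11.9 TPM). Fosb overlapped Jun, and Jund overlapped Egr2, in the combination. The summed level of the 10 genes was 2541, 2122 and 2154 TPM in the combination, 1999, 1683 and 1057 TPM with CSF1Ri, 2076, 1838 and 1756 TPM with the CD40 agonist and 1106, 991 and 858 TPM in Control. All 3 combination libraries and all 3 CD40 agonist libraries were above all 3 Control libraries in this sum, and the lowest CSF1Ri library fell within the Control range.

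**Figure D1:**
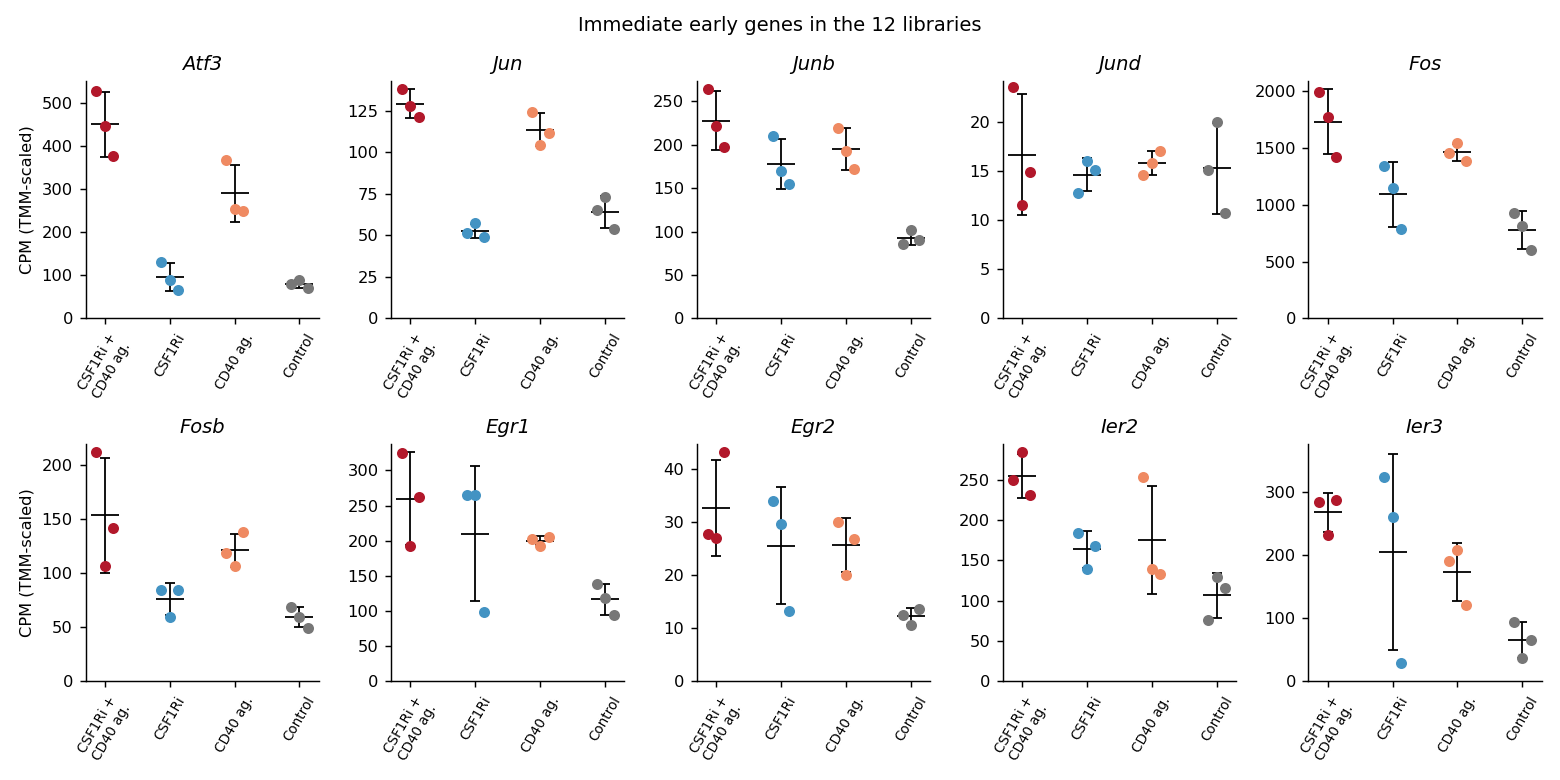
Levels of the 10 genes in TMM-scaled CPM (vertical axes, from 0), with 1 point per library and bars for the mean ± SD of 3 libraries in the combination, CSF1Ri, CD40 agonist and Control groups. Atf3 reached 377 to 527 CPM in the combination, against 71.0 to 88.8 CPM in Control, while the Jund points overlapped in all 4 groups.

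The comparison of the combination with Control asked what both agents did together. edgeR's quasi-likelihood test called 5 of the 10 genes higher at a Benjamini-Hochberg adjusted p below 0.05 over all genes, Atf3, Jun, Junb, Fos and Fosb, and 0 lower. Of all genes tested, 0.462% were called higher. Every combination library was above every Control library for 9 of the 10 genes, Jund excepted, which held for 10.8% of all genes. The median log2 difference of the 10 genes was 1.28, beside 0.00 for all genes tested. At an unadjusted p below 0.05 stood 9 of the 10, beside 14.8% of all genes.

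Atf3 (ENSMUSG00000026628, chromosome 1, 191170296 to 191218039, GRCm38), an ATF factor induced by stress and cytokines that can repress inflammatory genes, ranked first by p-value. It was measured at 527, 447 and 377 CPM in the combination, 131, 88.3 and 67.2 CPM with CSF1Ri, 367, 253 and 250 CPM with the CD40 agonist and 80.0, 88.8 and 71.0 CPM in Control. The 6 libraries with the antibody lay above the 6 without it, and CSF1Ri overlapped Control. In the combination against Control Atf3 rose by 2.49 ± 0.26 on the log2 scale (SE; adjusted p = 0.0142), a fold of 5.64, with the smallest p-value of the 16027 genes. Nearly all of its TPM came from a single transcript, whose annotated start lies within the promoter window shown above.

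Jun and Junb encode Jun proteins that form AP-1 dimers, Junb being a weaker activator than Jun in many settings. Jun (ENSMUSG00000052684, chromosome 4, 95049034 to 95052222) was at 138, 128 and 121 CPM in the combination, 51.5, 57.4 and 49.1 CPM with CSF1Ri, 124, 105 and 112 CPM with the CD40 agonist and 65.1, 73.0 and 54.0 CPM in Control. It was high in the 6 antibody libraries alone, with no overlap with the other 6, and rose in the combination against Control by 1.01 ± 0.14 (log2, adjusted p = 0.0194).

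Junb (ENSMUSG00000052837, chromosome 8, 84974484 to 84978718) had another pattern. It stood at 264, 222 and 197 CPM in the combination, 210, 170 and 154 CPM with CSF1Ri, 220, 193 and 172 CPM with the CD40 agonist and 85.9, 102 and 90.7 CPM in Control. All 9 treated libraries were above the 3 Control libraries, and the 3 treated groups overlapped one another. The log2 difference of Junb in the combination against Control was 1.29 ± 0.16 (adjusted p = 0.0145).

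Jund (ENSMUSG00000071076, chromosome 8, 70698949 to 70700616), a Jun protein gene that many resting cells express, had 23.5, 11.6 and 14.9 CPM in the combination, 12.8, 16.0 and 15.2 CPM with CSF1Ri, 14.6, 15.9 and 17.0 CPM with the CD40 agonist and 15.1, 20.0 and 10.7 CPM in Control. The groups overlapped throughout. Its log2 difference in the combination against Control was 0.13, with a 95% interval of -0.56 to 0.81. The libraries carry no strand information, so reads of Jun and Jund cannot be told apart from those of the antisense genes Junos and Gm11175 in the same exons, nor reads of Junb from an overlapping exon of Prdx2 on the other strand.

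The makeup of the Jun family was taken as shares of the summed TPM of Jun, Junb and Jund. Junb held 72.7%, 73.4% and 71.3% in the combination, 83.3%, 78.0% and 78.4% with CSF1Ri, 72.8%, 72.6% and 69.0% with the CD40 agonist and 62.9%, 62.9% and 69.1% in Control. Its share was above the whole Control range in every combination and CSF1Ri library, and one CD40 agonist library fell just inside that range. Jun held 10.8% to 13.6% with CSF1Ri, below all other libraries, which ran from 19.9% to 24.7%. These shares were described and not tested.

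**Figure D2:**
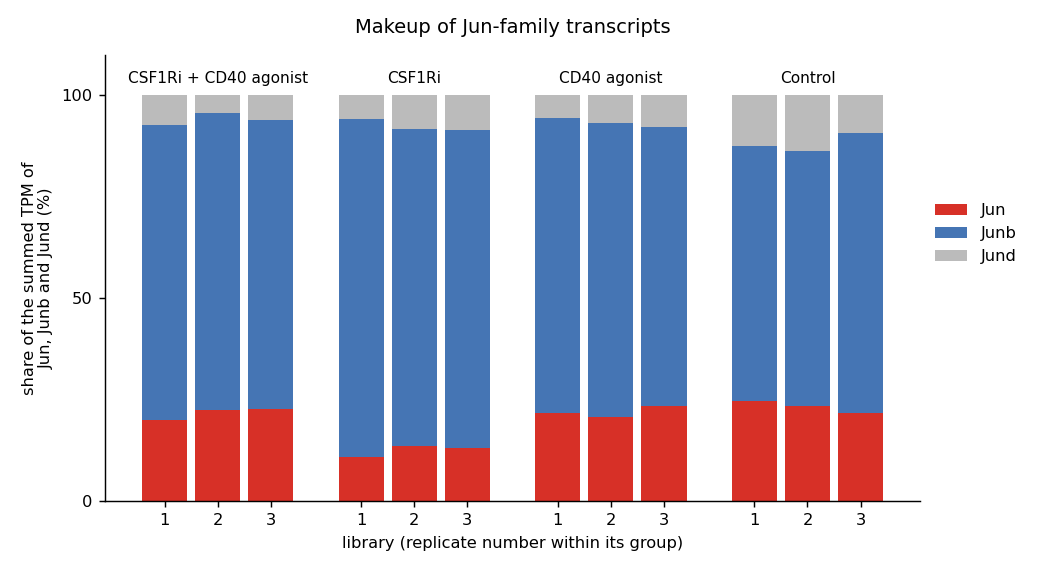
Share of Jun, Junb and Jund in their summed TPM (vertical axis, percent) in each of the 12 libraries, grouped as combination, CSF1Ri, CD40 agonist and Control. The 3 CSF1Ri libraries have the lowest Jun shares, 10.8% to 13.6%, and Jund holds 9.29% to 13.8% in Control, more than in any treated library.

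Fos and Fosb encode Fos proteins, which bind DNA as dimers with Jun proteins. Fos (ENSMUSG00000021250, chromosome 12, 85473890 to 85477273) was at 1993, 1774 and 1423 CPM in the combination, 1342, 1151 and 784 CPM with CSF1Ri, 1456, 1541 and 1387 CPM with the CD40 agonist and 931, 812 and 598 CPM in Control. The 6 antibody libraries were above the other 6, and CSF1Ri replicate 3 lay inside the Control range. Fos rose in the combination against Control by 1.15 ± 0.21 (log2, adjusted p = 0.0378).

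Fosb (ENSMUSG00000003545, chromosome 7, 19302696 to 19310051) was at 211, 106 and 142 CPM in the combination, 84.0, 58.9 and 84.6 CPM with CSF1Ri, 118, 107 and 138 CPM with the CD40 agonist and 68.5, 59.7 and 49.6 CPM in Control. It rose in the combination against Control by 1.37 ± 0.25 (log2, adjusted p = 0.0367), again with the 6 antibody libraries above the other 6. Fos held 94.3% to 97.2% of the summed TPM of the pair in the 12 libraries. The deposited estimates divided Fosb between transcripts unevenly: the transcript that spans the whole gene held 31.5% to 62.7% of its TPM per library and a shorter coding transcript 0.753% to 61.3%, so its isoforms are not compared.

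Egr1 and Egr2 encode zinc finger factors, of which Egr2 is also known for a role in macrophage activation. Egr1 (ENSMUSG00000038418, chromosome 18, 34859823 to 34864984) was at 325, 192 and 262 CPM in the combination, 266, 265 and 99.0 CPM with CSF1Ri, 202, 193 and 205 CPM with the CD40 agonist and 138, 118 and 94.2 CPM in Control. Combination and CD40 agonist libraries were above all Control libraries, yet the combination's log2 difference of 1.16 ± 0.33 missed the threshold (adjusted p = 0.143). Egr2 (ENSMUSG00000037868, chromosome 10, 67535475 to 67542188) was the least abundant per length in every group, at 27.8, 27.0 and 43.2 CPM in the combination, 34.0, 29.6 and 13.1 CPM with CSF1Ri, 30.1, 20.0 and 26.7 CPM with the CD40 agonist and 12.5, 10.6 and 13.6 CPM in Control. Its groups did not overlap between the combination and Control, with a log2 difference of 1.42 ± 0.35 (adjusted p = 0.0944). Egr1 held 84.8% to 91.2% of the summed TPM of the pair in the 12 libraries, with ranges that overlapped between all 4 groups.

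Ier2 and Ier3 encode small immediate early proteins, Ier3 being tied to cell survival and NF-kB signalling. Ier2 (ENSMUSG00000053560, chromosome 8, 84661331 to 84662852) was at 249, 284 and 231 CPM in the combination, 184, 139 and 168 CPM with CSF1Ri, 253, 140 and 133 CPM with the CD40 agonist and 75.2, 129 and 115 CPM in Control. All treated libraries were above Control, and the combination's log2 difference was 1.26 ± 0.27 (adjusted p = 0.0609). Ier3 (ENSMUSG00000003541, chromosome 17, 35821684 to 35822923) varied widely within groups, at 283, 232 and 287 CPM in the combination, 324, 260 and 28.9 CPM with CSF1Ri, 191, 207 and 121 CPM with the CD40 agonist and 94.2, 36.8 and 64.5 CPM in Control. CSF1Ri replicate 3 was below every Control library, and the combination's log2 difference of 2.04 ± 0.66 did not pass the test (adjusted p = 0.184).

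The calls of the combination against Control depended on the Control libraries. Without any 1 of the 3 Control libraries edgeR called 0 of the 10 genes, with adjusted p between 0.0524 and 0.0766 for Atf3, up to 0.0896 for Jun, 0.0836 for Junb, 0.138 for Fos and 0.149 for Fosb. Of all genes 0, 1 and 0 were called in those 3 fits, beside 124 with every library. The log2 differences in them were 2.41 to 2.57 for Atf3, 0.89 to 1.11 for Jun, 1.23 to 1.36 for Junb, 0.98 to 1.29 for Fos and 1.25 to 1.48 for Fosb. Fos and Fosb each lost the call without any of 10 of the 12 libraries, whereas leaving out CSF1Ri replicate 3 raised the count to 8 (154 of all genes). With every library DESeq2 called 8 of the 10, beside 5.82% of all genes, and limma voom 6, beside 0.942%. Fitted on its own 6 libraries alone, the comparison called 5 of all genes, Atf3 among them.

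**Figure D3:**
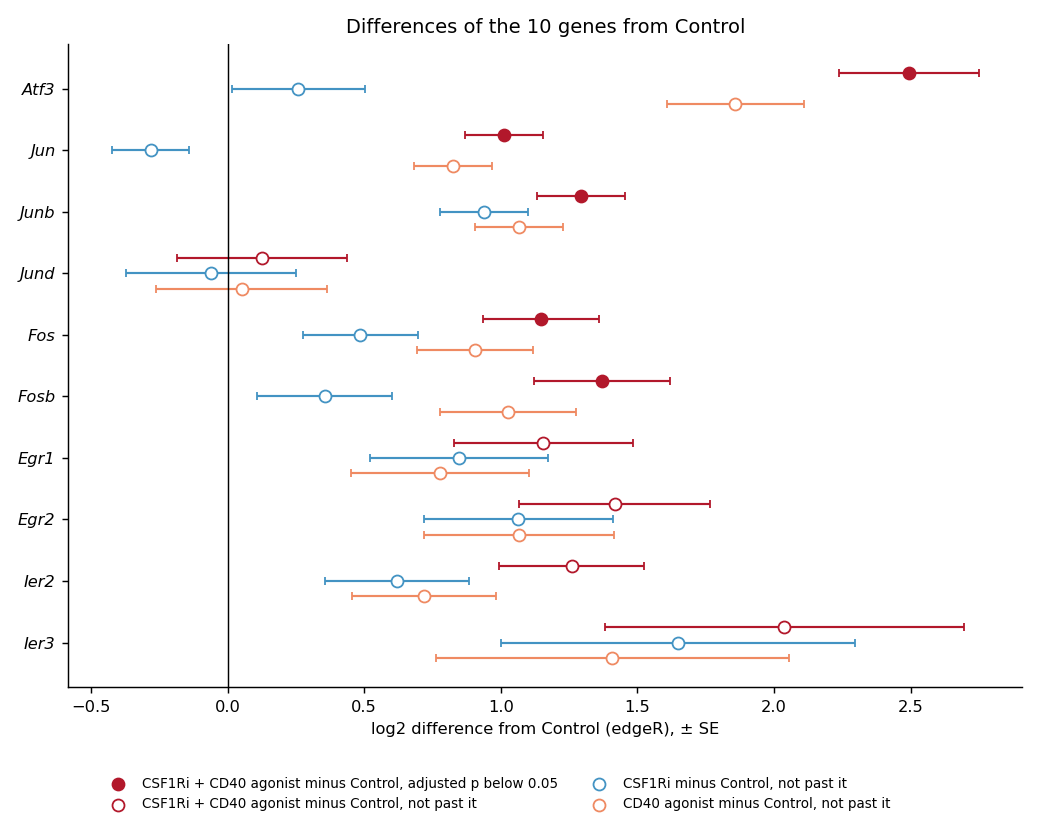
Log2 differences from Control of the 10 genes (horizontal axis, edgeR estimate ± SE) for the combination, CSF1Ri and the CD40 agonist, which share the same 3 Control libraries. Filled points passed an adjusted p of 0.05: they are the 5 combination values of Atf3, Jun, Junb, Fos and Fosb, while Jun with CSF1Ri lies below 0 at -0.28.

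The antibody alone was compared with the same Control libraries. edgeR called 0 of the 10 genes with the CD40 agonist, beside 0% of all genes, while 8 of the 10 were at an unadjusted p below 0.05 (7.68% of all genes), DESeq2 called 5 (1.22% of all genes) and limma voom 1 (0.0312%). Every CD40 agonist library was above every Control library for 9 of the 10 genes, all but Jund, beside 8.34% of all genes. The log2 differences were 1.86 ± 0.25 for Atf3 (adjusted p = 0.106), 1.07 ± 0.16 for Junb (adjusted p = 0.116) and 0.83 ± 0.14 for Jun (adjusted p = 0.156). Atf3 again had the smallest p-value of all genes. Fos and Fosb had log2 differences of 0.91 ± 0.21 and 1.03 ± 0.25, and the median of the 10 genes was 0.97 beside 0.01 for all genes. CD40 agonist replicate 1 was the highest of its group for Atf3 and Ier2, and without it the log2 differences were 1.66 for Atf3 (adjusted p = 0.22) and 0.37 for Ier2 (adjusted p = 0.771), beside 0.72 for Ier2 with it.

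The chow alone gave a mixed picture. edgeR called 0 of the 10 genes with CSF1Ri against Control, beside 0.0125% of all genes, with 6 at an unadjusted p below 0.05 (9.47% of all genes), 1 called by DESeq2 (2.55% of all genes) and 0 by limma voom (0%). Junb and Ier2 were the genes with every CSF1Ri library above every Control library, beside 7.23% of all genes. The log2 difference of Junb was 0.94 ± 0.16 (adjusted p = 0.0813) and that of Ier2 0.62 ± 0.26 (adjusted p = 0.495). Jun had -0.28 ± 0.14 (adjusted p = 0.57) and Atf3 0.26 ± 0.24 (adjusted p = 0.826), and leaving out CSF1Ri replicate 1 turned Atf3 to -0.051. The median of the 10 genes was 0.55 beside -0.01 for all genes.

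CSF1Ri replicate 3 was the lowest of its group for Atf3, Jun, Junb, Fos, Egr1, Egr2 and Ier3. Its summed neutrophil markers were 775 CPM, against 3197 and 2346 CPM in the other CSF1Ri libraries, and its fibroblast markers 150 CPM, against 20.2 and 32.6 CPM. The part of either in these levels was not tested. Without this library edgeR called 3 of the 10 genes with CSF1Ri against Control, and without it and combination replicate 2, 4. Of all genes it called 124 and 338 in those fits, beside 2 with every library.

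Adding the antibody to the chow moved Atf3 and Jun. In the combination against CSF1Ri edgeR called both, and 0 others, beside 1.24% of all genes called higher. Atf3 was higher by 2.24 ± 0.25 and Jun by 1.29 ± 0.14 on the log2 scale (adjusted p = 0.0066 for each), and both calls held without any single library. Fosb (1.02 ± 0.25, adjusted p = 0.0646), Fos (0.66 ± 0.21, adjusted p = 0.131) and Ier2 (0.64 ± 0.26, adjusted p = 0.231) also had every combination library above every CSF1Ri library, giving 5 genes of 10 beside 10.8% of all genes. Junb differed by 0.36 (95% interval 0.01 to 0.71, adjusted p = 0.267). Egr1 and Ier3 had differences of 0.31 and 0.39, which turned to -0.017 and -0.11 without CSF1Ri replicate 3. On the 6 libraries of this comparison alone edgeR called 0 of the 10 genes and 0 of all genes.

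Adding the chow to the antibody gave no call. In the combination against the CD40 agonist edgeR called 0 of the 10 genes, beside 0% of all genes, with 1 at an unadjusted p below 0.05 (9.05% of all genes), and neither DESeq2 (1.72% of all genes) nor limma voom (0.0437%) called any of the 10. All 10 estimates were above 0, beside 49.9% of all genes. Atf3 and Ier3 had every combination library above every CD40 agonist library (6.6% of all genes), with log2 differences of 0.64 ± 0.24 (adjusted p = 0.458) and 0.63 ± 0.63 (adjusted p = 0.865). The 95% interval of the difference was -0.13 to 0.50 for Jun, -0.12 to 0.58 for Junb and -0.22 to 0.70 for Fos.

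The mean effect of the antibody over both chows set the 6 libraries with it against the 6 without. edgeR called the same 5 genes, Atf3, Jun, Junb, Fos and Fosb, beside 1.33% of all genes called higher. Atf3 rose by 2.05 ± 0.18 and Jun by 1.06 ± 0.10 (log2, adjusted p = 0.00151 for each). Fosb rose by 1.02 ± 0.18 (adjusted p = 0.02), Fos by 0.78 ± 0.15 (adjusted p = 0.0293) and Junb by 0.71 ± 0.11 (adjusted p = 0.0143). Atf3, Jun, Fos and Fosb did not overlap between the antibody libraries and the others, beside 1.22% of all genes. The calls of Atf3 and Jun held without any single library, that of Junb ended without Control replicate 1 (adjusted p = 0.052), that of Fosb without any of 5 libraries (adjusted p up to 0.0585) and that of Fos without any of 8 (adjusted p up to 0.0787). This comparison uses the libraries of the preceding ones and is not independent of them.

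Whether the agents added up was tested as an interaction, the log2 difference of the combination from the CD40 agonist less that of CSF1Ri from Control. edgeR called 0 of the 10 genes, beside 0% of all genes, with 2 at an unadjusted p below 0.05 (8.14% of all genes) and 0 called by DESeq2 (1.07% of all genes) or limma voom (0%). Those 2 were Junb, with -0.71 ± 0.23 (adjusted p = 0.451), and Jun, with 0.47 ± 0.20 (adjusted p = 0.583). The test of any difference among the 4 groups called Atf3, Jun and Junb, beside 1.2% of all genes (adjusted p = 0.0101 for Atf3 and Jun and 0.024 for Junb).

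Of 18 further Jun, Fos, ATF, Maf and CREB factor genes, edgeR called 0 in the combination against Control, with 5 at an unadjusted p below 0.05 (14.8% of all genes). DESeq2 called 4 (5.82% of all genes) and limma voom 0 (0.942%). Their median log2 difference was -0.03, with 8 of 18 above 0. Atf4, the main transcription factor of the integrated stress response, averaged 165 ± 22.8 CPM in the combination and 107 ± 6.89 CPM in Control (SD, n = 3 each; log2 difference 0.62, adjusted p = 0.131). Atf6, a sensor of stress in the endoplasmic reticulum, averaged 92.6 ± 13.2 CPM in the combination and 140 ± 22.1 CPM in Control (-0.60, adjusted p = 0.132). Of the other Egr genes and their Nab co-repressors 3 of 4 were testable, with 0 called by edgeR, DESeq2 or limma voom and 0 at an unadjusted p below 0.05. Nab1 and Nab2 had log2 differences of -0.13 and -0.31.

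Genes acting upstream were examined in the same way. Of 20 MAP kinase genes, Map3k1, a kinase that feeds the JNK and ERK cascades, was called lower in the combination against Control, at 366 ± 31.0 CPM in the combination and 543 ± 26.3 CPM in Control (-0.57 ± 0.11, adjusted p = 0.0378), a call that ended without any of 11 of the 12 libraries. Beside it, 0.312% of all genes were called lower. Map3k5 had -0.77 ± 0.28 (adjusted p = 0.241). Of 6 genes for serum response factor, its cofactors and ternary complex factors, edgeR, DESeq2 and limma voom called 0, with 2 at an unadjusted p below 0.05 (14.8% of all genes). Elk3 had -0.57 and Mrtfa -0.53 there, and Mrtfa, a cofactor of serum response factor, was called lower in the mean effect of the antibody (-0.50 ± 0.11, adjusted p = 0.0468; 0.761% of all genes), which did not hold without any of 10 libraries.

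Among 16 testable genes for feedback inhibitors of MAP kinases and mRNA decay factors, 9 were above 0 in the combination against Control. At an unadjusted p below 0.05 stood 7 of them, beside 14.8% of all genes. DESeq2 called 7, beside 5.82% of all genes, and limma voom 1, beside 0.942%. edgeR called Dusp6, the phosphatase that dephosphorylates ERK, lower there, beside 0.312% of all genes, and 0 higher. It averaged 352 ± 48.5 CPM in the combination, 683 ± 34.9 CPM with CSF1Ri, 488 ± 25.0 CPM with the CD40 agonist and 660 ± 15.5 CPM in Control (SD, n = 3 each). Its log2 difference was -0.91 ± 0.11 (adjusted p = 0.0142), a call that ended without any 1 Control library (adjusted p up to 0.0766). In the mean effect of the antibody Dusp6 fell by 0.70 ± 0.08 (adjusted p = 0.00511), without a change of call when any single library was left out. Dusp2, a nuclear phosphatase of activated immune cells, and Gadd45b, which binds MAP kinase kinases, rose in that mean effect by 1.15 ± 0.21 (adjusted p = 0.0246) and 0.97 ± 0.21 (adjusted p = 0.0461), and lost the call without any of 6 and 10 libraries. Gadd45a had 2.00 ± 0.42 in the combination against Control (adjusted p = 0.0601).

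Of 27 testable other immediate early genes, 2 were called higher and 1 lower in the combination against Control, beside 0.462% and 0.312% of all genes, with a median of 0.33. At an unadjusted p below 0.05 stood 14 of the 27, beside 14.8% of all genes. DESeq2 called 7, beside 5.82% of all genes, and limma voom 3, beside 0.942%. Klf6, a zinc finger factor, averaged 1263 ± 139 CPM in the combination and 720.5 ± 53.4 CPM in Control (0.81 ± 0.12). Pim1, a cytokine-induced kinase, averaged 1009 ± 176 CPM in the combination and 470.5 ± 85.3 CPM in Control (1.10 ± 0.17). Klf4, a factor of monocyte differentiation, averaged 93.8 ± 6.60 CPM in the combination and 161 ± 2.34 CPM in Control (-0.78 ± 0.12). All 3 had an adjusted p of 0.0196, and each lost the call without any 1 Control library, Klf4 also without combination replicate 3 (adjusted p up to 0.109 for Klf6, 0.0969 for Pim1 and 0.0997 for Klf4). Klf10 was called lower in the mean effect of the antibody (-0.52 ± 0.10, adjusted p = 0.0303), and lost that call without any of 8 libraries.

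Of 19 genes known as AP-1 targets, 2 were called higher in the combination against Control and 0 lower, beside 0.462% and 0.312% of all genes, with 16 above 0 and a median of 0.71. At an unadjusted p below 0.05 stood 7 of the 19, beside 14.8% of all genes. DESeq2 called 5, beside 5.82% of all genes, and limma voom 2, beside 0.942%. Tnf, the inflammatory cytokine, averaged 168 ± 87.6 CPM in the combination, 10.2 ± 2.86 CPM with CSF1Ri, 83.5 ± 28.9 CPM with the CD40 agonist and 22.3 ± 2.15 CPM in Control. The log2 difference of Tnf was 2.91 ± 0.39 in the combination against Control (adjusted p = 0.0156) and 2.97 ± 0.28 in the mean effect of the antibody (adjusted p = 0.00151). Il6, another inflammatory cytokine, averaged 51.9 ± 8.16 CPM in the combination, 47.5 ± 7.63 CPM with CSF1Ri, 21.5 ± 7.08 CPM with the CD40 agonist and 13.4 ± 5.12 CPM in Control (1.95 ± 0.32 for the combination against Control, adjusted p = 0.0244). Without any 1 Control library neither was called there (adjusted p up to 0.0896 for Tnf and 0.131 for Il6), nor was Il6 without combination replicate 1. Mmp12, the macrophage elastase, and Mt1, a metallothionein, rose in the mean effect of the antibody by 2.75 ± 0.48 (adjusted p = 0.0203) and 1.19 ± 0.23 (adjusted p = 0.0299), and lost the call without any of 6 and 9 libraries. These cytokines have other regulators, and the list describes them together without a test of the list.

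**Figure D4:**
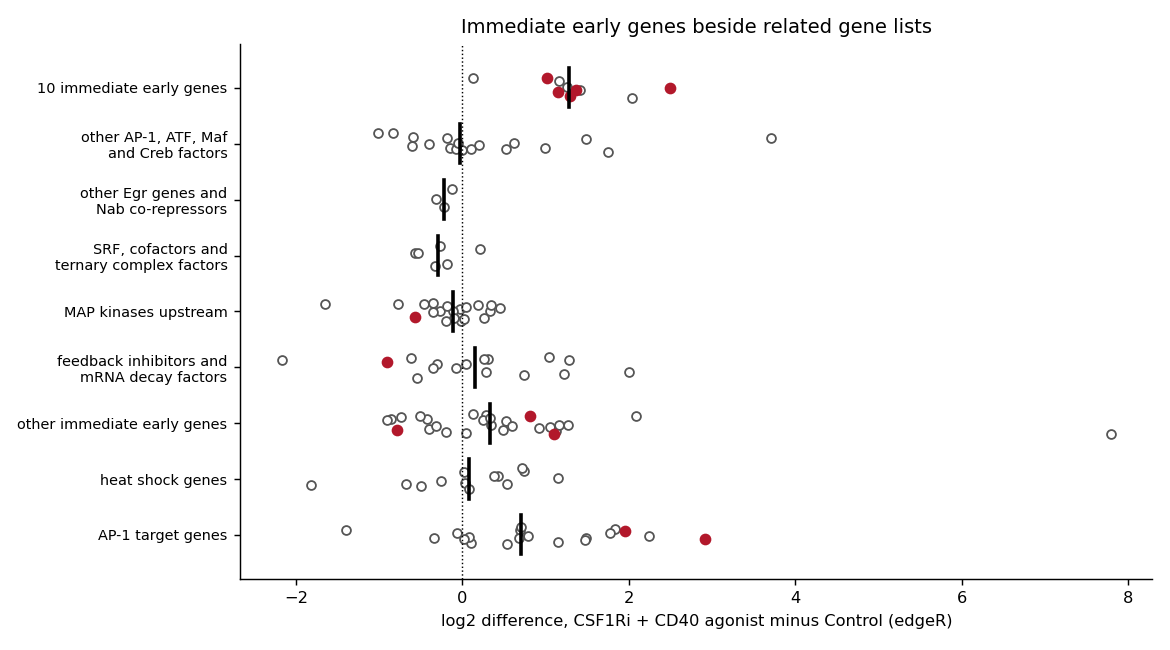
Log2 differences of the combination against Control (horizontal axis, edgeR) for the 10 immediate early genes and 8 related lists, with 1 point per gene, filled where the adjusted p was below 0.05, and a bar at each list's median. The 10 genes have a median of 1.28, the 18 other AP-1, ATF, Maf and CREB genes -0.03 and the 13 heat shock genes 0.08.

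Heat shock genes, which respond to protein damage and also to tissue handling, were measured beside them. edgeR called 0 of 13 in the combination against Control, with 5 at an unadjusted p below 0.05 (14.8% of all genes) and a median of 0.08. DESeq2 called 2 there (5.82% of all genes) and limma voom 0 (0.942%). Hspa8 averaged 2771 ± 921 CPM in the combination and 1692 ± 179 CPM in Control (0.71, adjusted p = 0.113), and Dnajb1 had 0.74 ± 0.22 (adjusted p = 0.159). With the CD40 agonist against Control the median of the 13 genes was -0.04, with 0 called by any of the 3 tools. There 1 stood at an unadjusted p below 0.05 (7.68% of all genes). Against CSF1Ri, where Atf3 and Jun were called, the median in the combination was 0.46 with 10 of 13 above 0. At an unadjusted p below 0.05 stood 6 of them, for which the share over all genes is not given here. There edgeR and limma voom called 0 of the 13, beside 311 and 294 of all genes, and DESeq2 2, beside 1484. The median was 0.20 in the mean effect of the antibody, with 10 of 13 above 0, and 0.41 in the interaction, with 12 of 13 above 0. In the mean effect edgeR and limma voom called 0, beside 335 and 334 of all genes, and DESeq2 3, beside 1486, with 5 at an unadjusted p below 0.05. In the interaction all 3 tools called 0, with 2 at an unadjusted p below 0.05, beside 8.14% of all genes. The part of these in the levels of the immediate early genes was not tested.

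Markers of other cells also differed between the groups. Summed melanocyte markers were 26.6 to 105 CPM in the combination, 11.1 to 15.6 CPM with CSF1Ri, 34.9 to 59.8 CPM with the CD40 agonist and 18.1 to 24.7 CPM in Control, so both antibody groups lay above both others. Of the 8 genes of that list 7 were testable and all 7 were above 0 in the mean effect of the antibody, with Dct called higher (1.33% of all genes). Sox10 was at 0 in every CSF1Ri and Control library, Slc45a2 in those and in every CD40 agonist library, and Tyrp1 and Mlana at 0 in every CSF1Ri library. Summed NK cell markers were 751 to 1351 CPM in the combination, 406 to 597 CPM with CSF1Ri, 687 to 1514 CPM with the CD40 agonist and 537 to 786 CPM in Control. In the mean effect of the antibody 7 of 7 were above 0, with Gzma called higher (1.33% of all genes) and no gene of the list at 0 in any library. Retnlg, a neutrophil gene, was called lower in that effect (0.761% of all genes), with 4 of the 10 neutrophil markers above 0. It stood at 10.7 to 33.2 CPM in the combination, 292 to 572 CPM with CSF1Ri, 13.8 to 28.1 CPM with the CD40 agonist and 119 to 218 CPM in Control. Summed neutrophil markers were 876 to 2588 CPM in the combination and 775 to 3197 CPM with CSF1Ri. They were 461 to 613 CPM with the CD40 agonist and 542 to 1338 CPM in Control. Ngp and Ltf of that list went the other way from Retnlg. Ngp was at 155 to 860 CPM in the combination and 19.8 to 107 CPM with the CD40 agonist. It was at 0 to 8.11 CPM with CSF1Ri and 0.0304 to 18.8 CPM in Control. Ltf was at 60.7 to 346 CPM in the combination and 0 to 11.6 CPM in Control. Mitochondrially encoded genes summed to 14931 to 21021 CPM in the combination, 10931 to 12872 CPM with CSF1Ri, 19271 to 19724 CPM with the CD40 agonist and 14103 to 18208 CPM in Control. All 13 were above 0 in the mean effect of the antibody, with a median log2 difference of 0.40. edgeR called mt-Co1, mt-Atp6, mt-Nd6 and mt-Cytb higher, beside 1.33% of all genes called higher. DESeq2 called 10 of the 13, beside 1486 of all genes, and limma voom 5, beside 334, with 11 at an unadjusted p below 0.05. The part of these in the levels of the immediate early genes was not tested.

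Other markers differed in the comparison of the combination with Control. Summed eosinophil, basophil and mast cell markers were 279 to 390 CPM in the combination, 388 to 469 CPM with CSF1Ri, 129 to 229 CPM with the CD40 agonist and 109 to 155 CPM in Control. Of the 11 testable genes of that list 6 were above 0 in the combination against Control. The mast cell and basophil genes Cpa3, Fcer1a and Mcpt8 were called higher in it, beside 0.462% of all genes. In the combination against CSF1Ri 4 of the 11 were above 0, with the eosinophil genes Il5ra, Ccr3 and Ear6 called lower and 0 called higher. Of all genes 311 were called there in either direction. The same 3 genes were called lower in the mean effect of the antibody (0.761% of all genes), where 6 were above 0 and Cma1 was called higher (1.33%). The sum thus joins genes that moved in both directions in that effect. Summed B cell markers were 111 to 208 CPM in the combination, 154 to 203 CPM with CSF1Ri, 297 to 387 CPM with the CD40 agonist and 282 to 325 CPM in Control. In the combination against Control 0 of 6 testable genes were above 0, and Ms4a1, the B cell antigen CD20, was called lower (0.312% of all genes). Summed erythroid markers were 12.3 to 314 CPM in the combination, 209 to 536 CPM with CSF1Ri, 126 to 195 CPM with the CD40 agonist and 424 to 648 CPM in Control. In the combination against Control 0 of 5 testable genes were above 0, with 0 called by edgeR or limma voom. DESeq2 called 1 (5.82% of all genes), and 4 stood at an unadjusted p below 0.05 (14.8%). Neutrophil markers had 8 of 10 genes above 0 in the combination against Control, with Retnlg called lower (0.312% of all genes). The part of these in the levels of the immediate early genes was not tested.

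The high and low libraries of each group were counted over the 10 genes, as a description. Highest for the most genes were combination replicate 1 (7 of 10), CSF1Ri replicate 1 (7), CD40 agonist replicate 1 (5) and Control replicate 2 (5). Lowest for the most were combination replicates 2 and 3 (5 each), CSF1Ri replicate 3 (7), CD40 agonist replicate 3 (5) and Control replicate 3 (6). Fos was the gene closest to the mean standardised log2 CPM profile of the 10, at a root mean square distance of 0.274 over 12 libraries, with no gene outside the set nearer. Atf3 followed at 0.36, with 4 genes outside the set nearer, and Jund was farthest at 1.11, with 3371 nearer. The median distance over all genes was 1.36. Each of the 10 genes is part of the mean profile, which brings it nearer. These counts therefore do not compare members with outside genes on equal terms.

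The 8 genes outside the set with the nearest profiles were Ndufaf3 (distance 0.286), an assembly factor of respiratory complex I, Pim1 (0.337), Nfkbia (0.353), the inhibitor of NF-kB, the chemokine gene Ccl3 (0.357), Ifrd1 (0.393), Ppp1r15a (0.409), a phosphatase subunit of the stress response, Taf7 (0.413), a subunit of the general factor TFIID, and Tpx2 (0.419), a spindle protein. In the combination against Control, Pim1, Nfkbia, Ccl3 and Ppp1r15a were called higher, beside 0.462% of all genes. The choice by profile in the same libraries favours genes that are higher there, so these calls are no separate result. The log2 differences of these 4 genes were 1.10 for Pim1, 1.91 for Nfkbia, 1.94 for Ccl3 and 2.23 for Ppp1r15a. After group means were removed, the nearest were 4933427D14Rik, Gm9973, Olfr145, Gm6483, Nudt4, Abl2, Rnf11 and Prr9, none of them among the first 8. The nearness over all libraries is thus a description of shared group levels in the same 12 libraries.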

How the data were processed

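The members and the related lists were chosen with earlier results of these data known: the 10 genes were given by name, the lists written from textbook roles. Per the file headers each deposited file gives the effective length, estimated count and TPM of 111462 transcripts, of which 110203 (98.9%) matched GENCODE M21 (GRCm38). Unmatched transcripts held 0.378% to 0.436% of counts and were left out. The submitters' processing notes name STAR, mm10, HTSeq and DESeq2, whereas these columns are those of a transcript quantifier that no source used here names. The authors' estimated counts carry no normalization, and were summed per gene and rounded. The TPM values that the authors deposited total 1000000 per library and served for levels between genes. The deposited effective lengths entered 1 alternative.

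One edgeR 4.0.16 fit (R 4.3.3) held all 12 libraries and a coefficient for each group, with TMM, filterByExpr, robust quasi-likelihood tests in their older form, 8 residual degrees of freedom and no replicate block. P-values were adjusted over 16027 genes by Benjamini-Hochberg, with calls below 0.05. The code of the fit was also run on simulated data. That run does not measure the error rates of the fit in these libraries, whose common dispersion was 0.372. DESeq2 1.42.0, limma 3.58.1, other scalings, no filter, other forms of the fit and left-out libraries were alternatives. Genes named outside the set were each list's called genes, its 2 with the smallest p in the combination against Control, and the 8 nearest profiles. Amplified reads carry no molecular identifiers, so counting error alone understates the error, and sharing of sequencing lanes could not be examined.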

Additional observations from a re-analysis of the deposited data

How the results depend on the processing

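One alternative left out combination replicate 2 and CSF1Ri replicate 3, which stand apart on the second principal component. It kept CD40 agonist replicate 1, which stands apart on the third. In the combination against Control DESeq2 called 8 of the 10 genes, edgeR without those 2 libraries 8 and edgeR on the 6 libraries compared 1, beside 5 as reported, and leaving out 1 library at a time gave 0 to 8. Of all genes these fits called 933, 232, 5 and 0 to 154, beside 124. For the CD40 agonist against Control the count was 5 with DESeq2, 2 with limma on log2(TPM + 1), without those 2 libraries and on the 6 libraries compared, and 1 with limma voom, with bias-adjusted edgeR and with the replicate number as a block (replicate block), beside 0, with 0 to 1 on leaving out 1 library. Of all genes these called 195, 22, 38, 43, 5, 10, 1 and 0 to 7, in that order, beside 0. For CSF1Ri against Control it was 1 with DESeq2 and with limma on log2(TPM + 1) and 4 without those 2 libraries, beside 0, with 0 to 3 on leaving out 1 library, while the counts over all genes were 408, 13, 338 and 0 to 124, beside 2. For the combination against CSF1Ri it was 4 with DESeq2 and 0 on the 6 libraries compared, beside 2, with 2 to 3 on leaving out 1 library (1484, 0 and 22 to 429 of all genes, beside 311). For the mean effect of the antibody it was 2 to 5 on leaving out 1 library, beside 5 (53 to 560 of all genes, beside 335). For any difference it was 7 with DESeq2, 5 with bias-adjusted edgeR and 8 without those 2 libraries, beside 3, with 2 to 6 on leaving out 1 library (1671, 411, 646 and 13 to 291 of all genes, beside 193). The cause of these moves was not tested, beyond fewer libraries in a fit. Same-numbered libraries of different groups correlated at -0.0625 to 0.0958 in their deviations from group means (18 pairs, median 0.0237). Pairs with different numbers had -0.156 to 0.117 (36 pairs, median -0.0118). Whether same-numbered samples were collected together is not stated, and these correlations cannot decide it. The block moved no other count of the 10 genes by over 1.5 times. Over all genes it called 59, beside 124, in the combination against Control, 121, beside 311, in the combination against CSF1Ri, 168, beside 335, in the mean effect and 49, beside 193, for any difference.

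Directions turned mostly for Jund, whose differences were small. With limma on log2(TPM + 1), which shifted the median of all genes by -0.12 in the combination against Control, Jund was at -0.062 there, -0.068 against the CD40 agonist, -0.049 against CSF1Ri, -0.054 in the interaction and -0.021 in the mean effect, and Dusp2 at -0.070 in the combination against Control. Leaving out 1 library at a time, Jund ran from -0.20 to 0.36 in the combination against Control, -0.15 to 0.30 for the CD40 agonist against Control, -0.28 to 0.17 for CSF1Ri against Control, -0.26 to 0.28 against the CD40 agonist, -0.14 to 0.39 against CSF1Ri, -0.19 to 0.34 in the interaction and -0.045 to 0.24 in the mean effect. Atf3 ran from -0.051 to 0.44 for CSF1Ri against Control, and in the combination against CSF1Ri Egr1 ran from -0.017 to 0.52 and Ier3 from -0.11 to 0.90. Without both combination replicate 2 and CSF1Ri replicate 3, Ier3 was at -0.032 there. In the interaction Fosb ran from -0.31 to 0.19 and Ier2 from -0.24 to 0.28, and Fosb was at 0.00346 with upper quartile scaling and 0.28 without both libraries. In the combination against Control Nab2 ran from -0.57 to 0.035 and Dusp2 from -0.15 to 0.51. None of these values had passed the test. In all 22 alternatives of the mean effect of the antibody, Atf3 and Jun were called.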
